A study of Mus musculus with 8 samples.

Results

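T follicular helper (TFH) cells and naive CD4 T cells, both of wild type donors, were compared in 4 of the 8 RNA sequencing libraries of a mouse study of the complement receptor C5aR1. The 4 libraries were chosen by their labels, 2 a side, and all 14042 genes of the deposited tables were kept. In the TFH group, 10000000 wild type spleen cells from which CD8 cells had been removed were given to (bxd)F1 mice, and donor cells that stained for CXCR5 and strongly for PD1 were sorted 7 days later. In the naive group, CD4 T cells of wild type mice were sorted by a naive surface phenotype that includes low CD44, with no transfer named. The groups therefore differ in transfer, host, activation and sort gate at once, and these cannot be told apart. Both groups carry the unaltered receptor gene, and the other 4 libraries are the same 2 kinds of cells lacking C5aR1. Neither the donor's strain nor the age of the animals is given, and no label ties a library to an animal of its own. The p-values below therefore measure only how far these samples spread, and that spread may be technical.

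TFH cells enter the follicles of lymphoid organs and help B cells to form germinal centres. They depend on the repressor BCL6, and they deliver help through CD40 ligand and the cytokines IL-21 and IL-4. Naive CD4 T cells circulate between blood and lymphoid organs, live on IL-7 and self peptide signals, and are held in quiescence by factors such as KLF2 and FOXO1. Giving parental T cells to an F1 host sets off a graft-versus-host reaction, in which donor T cells meet host antigens that they see as foreign.

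Levels are the deposited log2 values, on a scale that is not divided by gene length, so levels are compared between libraries and not between genes. Each pair of values gives replicate 1 and then replicate 2. These numbers were given here in the order of deposition, since the labels hold none, and pair nothing across groups. Differences are TFH minus naive means on the log2 scale ± SE, with n = 2 libraries per group, and a gene was called at a Benjamini-Hochberg adjusted p below 0.05 in limma. The number of reads behind the values is unknown. Where leaving out 1 library ended a call, brackets name that library, the difference at the weakest such fit, and the range of adjusted p over all 13 alternatives. Pearson's r across genes, which share their libraries and are no replicates, was 0.9877 between the naive libraries, 0.9903 between the TFH libraries, and 0.9435 to 0.9546 between groups. The sum of 17 monocyte and macrophage markers was 16.30 and 14.75 in the naive and 12.94 and 13.80 in the TFH libraries, on the log2 scale. The sum of 18 B cell markers was 15.47 and 14.31 in the naive and 13.05 and 15.35 in the TFH libraries. Naive replicate 1 thus stood highest in both sums and TFH replicate 1 lowest. By the median B cell marker, relative to the mean of the 4 libraries, TFH replicate 2 stood highest, at 0.92. Naive replicate 1 was at 0.64. In bulk samples fewer cells of a type and less RNA per cell cannot be told apart.

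The label of the cells was checked first on the genes of the sort. Cd4, the co-receptor shared by both groups, was at 15.63 and 15.48 in the naive and 15.69 and 15.64 in the TFH libraries. Cd4 differed by 0.11 ± 0.10 (adjusted p = 0.457) and was not called. Pdcd1, which encodes PD1, was at 11.84 and 10.80 in the naive and 12.85 and 12.52 in the TFH libraries. Both TFH libraries lay above both naive libraries, but with a difference of 1.36 ± 0.51 (adjusted p = 0.135) Pdcd1 was not called. Its adjusted p ran from 0.0272, without the robust option and there called, to 0.389 over the alternatives. Cxcr5 was at 12.45 and 11.56 in the naive and 11.56 and 11.33 in the TFH libraries, with TFH replicate 1 level with naive replicate 2, and Cd44, the marker of antigen experience, at 13.04 and 12.53 in the naive and 11.97 and 12.11 in the TFH libraries. Cxcr5 differed by -0.57 ± 0.34 (adjusted p = 0.293) and was not called, but without naive replicate 2 it was called lower, at -1.01 (adjusted p 0.0203 to 0.774 over all alternatives). Cd44 fell by 0.75 ± 0.14 (adjusted p = 0.0034), opposite to the surface staining named for the naive gate. Pdcd1 thus lay in the direction of the gate without being called, while Cxcr5 and Cd44 transcripts did not follow the gates. The part of other cells in the Cd44 difference was not tested. The libraries are therefore called TFH and naive by their labels.

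In all, 26.3% of the 14042 genes were called, 12.6% higher and 13.7% lower in TFH. The median difference over all genes was 0.01. Of 3694 called genes, 1508 kept the call when each of the 4 libraries was left out in turn, 749 of them higher and 759 lower. Both TFH libraries lay above both naive libraries for 33.1% of genes and below both for 32% of genes. All 3694 called genes were among these, so a lack of overlap adds nothing to a call. Counts of list members given below are to be read beside these shares of all genes. The smallest called difference was 0.27 and the median size of a called difference 0.70.

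**Figure D1:**
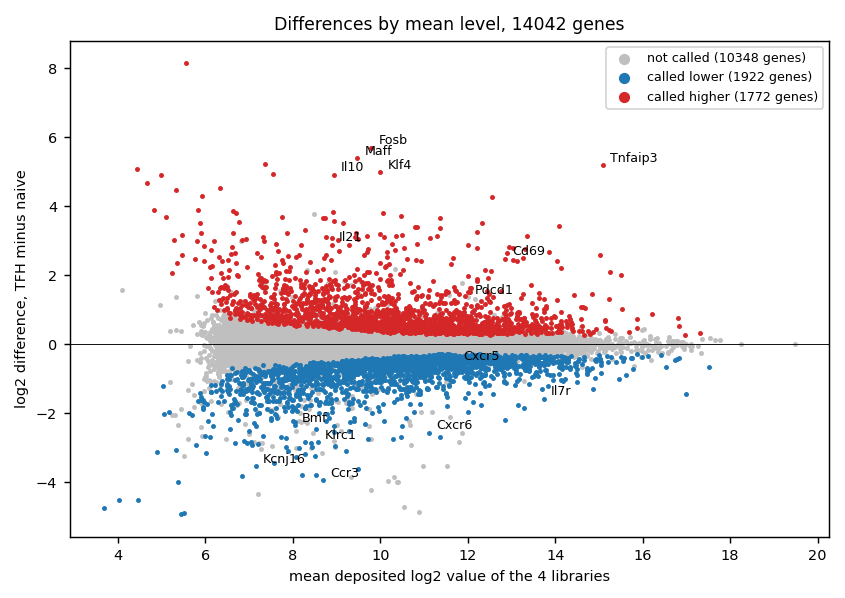
Difference of TFH minus naive means (log2, vertical axis) against the mean deposited log2 value of the 4 libraries (horizontal axis), 1 point per gene, with the 1772 genes called higher in red, the 1922 called lower in blue and the others in grey. Tnfaip3, at a difference of 5.19 ± 0.11, stands apart among genes of high level, and Cxcr5 and Pdcd1 lie among grey points.

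Promoters of 6 genes that rose are shown because each holds recognition letters of CREB, AP-1, NF-kB or EGR factors, and all 6 genes kept their call in each alternative. They were chosen after their values and matches were seen. Each sequence is the 250 bases before the annotated start, 5′ to 3′ on the gene's strand, from RefSeq on GRCm38.p6. Capitals mark matches on either strand to TGACGTCA (the cyclic AMP response element, CRE), TGANTCA (AP-1), GGG, any 2 bases and TTTCC (NF-kB) or GCGNGGGCG (EGR), where N is any base.
Tnfaip3 (chr10:19015411-19015660, minus strand): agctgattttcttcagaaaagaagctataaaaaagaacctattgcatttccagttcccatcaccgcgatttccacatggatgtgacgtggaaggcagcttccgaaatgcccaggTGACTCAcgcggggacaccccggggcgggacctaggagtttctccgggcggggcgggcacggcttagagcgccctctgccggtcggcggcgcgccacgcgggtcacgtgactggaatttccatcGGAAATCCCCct
Maff (chr15:79347270-79347519, plus strand): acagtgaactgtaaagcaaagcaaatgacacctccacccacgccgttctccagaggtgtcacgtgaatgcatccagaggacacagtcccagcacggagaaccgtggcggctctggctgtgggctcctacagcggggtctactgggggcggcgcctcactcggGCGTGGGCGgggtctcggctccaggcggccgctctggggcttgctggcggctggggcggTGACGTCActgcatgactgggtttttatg
Fosb (chr7:19310046-19310295, minus strand): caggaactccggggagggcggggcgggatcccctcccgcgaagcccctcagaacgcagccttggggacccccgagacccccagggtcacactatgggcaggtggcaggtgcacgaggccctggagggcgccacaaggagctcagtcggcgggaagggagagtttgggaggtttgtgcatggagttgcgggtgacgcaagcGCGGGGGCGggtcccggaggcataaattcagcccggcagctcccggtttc
Klf4 (chr4:55532476-55532725, minus strand): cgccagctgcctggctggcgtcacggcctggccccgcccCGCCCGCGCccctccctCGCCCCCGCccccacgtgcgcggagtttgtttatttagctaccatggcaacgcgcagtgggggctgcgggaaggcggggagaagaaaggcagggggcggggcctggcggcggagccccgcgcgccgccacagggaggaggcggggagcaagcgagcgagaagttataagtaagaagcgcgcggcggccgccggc
Plk2 (chr13:110394794-110395043, plus strand): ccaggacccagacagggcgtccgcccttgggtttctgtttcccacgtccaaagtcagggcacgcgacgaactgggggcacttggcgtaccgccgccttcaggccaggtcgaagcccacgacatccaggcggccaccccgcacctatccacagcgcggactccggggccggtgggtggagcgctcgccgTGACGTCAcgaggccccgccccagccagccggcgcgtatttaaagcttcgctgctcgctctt
Dusp1 (chr17:26508473-26508722, minus strand): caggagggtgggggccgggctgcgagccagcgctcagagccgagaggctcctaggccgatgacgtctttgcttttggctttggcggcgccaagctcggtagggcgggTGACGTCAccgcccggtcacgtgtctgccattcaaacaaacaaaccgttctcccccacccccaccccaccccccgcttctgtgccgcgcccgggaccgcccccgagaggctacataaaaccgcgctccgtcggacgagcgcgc
The Tnfaip3 window holds an AP-1 match that starts 136 bases before the gene's start and an NF-kB match, on the opposite strand, at 12. Maff has an EGR match at 88 and a CRE at 29, Fosb an EGR match at 50, and Klf4 EGR matches on the opposite strand at 211 and 194. Plk2 and Dusp1 each hold the 8 letters of the CRE, at 62 and 143. A match describes the letters only and is not a binding site.

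Shares of genes with a match were counted over a longer window, from 250 bases before the annotated start to 50 bases after it. A gene was counted if any of its start windows matched. Over all 10875 genes of the tables with a window, 11.2% held the EGR letters, 3.35% the CRE, 6.63% the AP-1 letters and 2.09% the NF-kB letters. Among the 20 named rises, 16 had a window, and 31.2% of these held the EGR letters, 12.5% the CRE, 18.8% the AP-1 letters and 6.25% the NF-kB letters. Among the 20 named falls 16 had a window, and 0 held the EGR letters or the CRE, 12.5% the AP-1 letters and 12.5% the NF-kB letters. Of 19 NF-kB subunits and targets with a window, 26.3% held the NF-kB letters. Of 18 heat shock chaperones with a window, 22.2% held the heat shock element, the repeat of 3 GAA units in alternating direction read by heat shock factors, against 0.579% of all windows. The CArG box, read by serum response factor, was in 22.2% of 9 EGR, NR4A and IER genes with a window, against 1.56% of all. Windows of different genes share base composition and, in families, ancestry, and these shares carry no test. Each CRE also contains the shorter site TGACG, which is not capitalised above and which 33.4% of all windows held, beside 56.2% of the windows of named rises.

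Among the 20 named rises, Tnfaip3, which encodes the ubiquitin-editing brake A20 on NF-kB, was at 12.56 and 12.41 in the naive and 17.60 and 17.76 in the TFH libraries. Maff, a small MAF transcription factor, was at 6.76 and 6.80 in the naive and 11.98 and 12.37 in the TFH libraries. Klf4, a zinc finger factor that restrains proliferation, was at 7.74 and 7.27 in the naive and 12.42 and 12.57 in the TFH libraries. For all 3 the TFH libraries lay close together and far above both naive libraries. Tnfaip3 rose by 5.19 ± 0.11 (adjusted p = 2.58e-10), Maff rose by 5.40 ± 0.15 (adjusted p = 3.36e-09) and Klf4 rose by 4.99 ± 0.17 (adjusted p = 8.38e-09).

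Fosb, an AP-1 subunit, was at 6.95 and 6.93 in the naive and 12.30 and 12.99 in the TFH libraries and rose by 5.71 ± 0.41 (adjusted p = 0.000438). Plk2, a stress-induced kinase, was at 7.22 and 6.77 in the naive and 10.66 and 10.999 in the TFH libraries and rose by 3.83 ± 0.19 (adjusted p = 1.62e-07). Nr4a2, an orphan nuclear receptor induced by antigen receptor signals, was at 6.71 and 7.09 in the naive and 10.37 and 10.76 in the TFH libraries and rose by 3.67 ± 0.24 (adjusted p = 2.86e-06). In these genes too the groups were far apart. Nfil3, a basic leucine zipper repressor, rose by 3.72 ± 0.31 (adjusted p = 0.00051), and Trib1, a pseudokinase that directs protein degradation, rose by 3.67 ± 0.20 (adjusted p = 1.13e-05). Il10, the gene of the suppressive cytokine IL-10, was at 6.92 and 6.04 in the naive and 11.49 and 11.31 in the TFH libraries and rose by 4.92 ± 0.72 (adjusted p = 0.0102). Bhlhe40, a repressor that restrains Il10 in T cells, was at 10.82 and 10.01 in the naive and 14.60 and 14.79 in the TFH libraries and rose by 4.28 ± 0.61 (adjusted p = 0.011). Both genes of this pair were thus high in the same libraries. Atf3, a stress-induced factor, was at 4.98 and 4.39 in the naive and 7.72 and 9.40 in the TFH libraries, with TFH replicate 2 well above replicate 1, and rose by 3.87 ± 0.65 (adjusted p = 0.00673). Leaving out 1 library ended the calls of Il10 (naive replicate 2 or either TFH library, 4.83 at the weakest, adjusted p 2.77e-05 to 0.108 over all alternatives), Bhlhe40 (naive replicate 2 or either TFH library, 4.19 at the weakest, adjusted p 0.000318 to 0.144 over all alternatives) and Atf3 (naive replicate 2, 3.58 at the weakest, adjusted p 4.7e-05 to 0.0547 over all alternatives).

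Several of the largest rises were genes known chiefly from other tissues. Gcg, the glucagon gene of pancreas and gut, was at 4.43 and 5.07 in the naive and 9.97 and 9.98 in the TFH libraries and rose by 5.22 ± 0.59 (adjusted p = 0.00139). Lgals7, the gene of a galectin of stratified epithelia, was at 4.86 and 5.28 in the naive and 10.28 and 9.73 in the TFH libraries and rose by 4.94 ± 0.36 (adjusted p = 3.97e-05). Edn3, which encodes endothelin 3, was at 5.98 and 5.85 in the naive and 9.76 and 9.44 in the TFH libraries and rose by 3.68 ± 0.40 (adjusted p = 0.000466). These 3 genes were in both TFH libraries at a like level, and in the libraries lacking C5aR1 the differences were 5.20, 4.99 and 3.01. Lpar3, a receptor for lysophosphatidic acid, rose by 4.55 ± 0.29 (adjusted p = 1.49e-06), and Flrt2, the gene of an adhesion and guidance protein, rose by 4.30 ± 0.47 (adjusted p = 0.000109). Padi4, the gene of an arginine deiminase best known from neutrophils, was at 8.69 and 7.66 in the naive and 12.14 and 11.81 in the TFH libraries and rose by 3.80 ± 0.40 (adjusted p = 0.00178). Fam83d, which encodes a spindle protein, rose by 3.80 ± 0.28 (adjusted p = 3.57e-06), and Fam20a, the gene of a secretory pathway pseudokinase, rose by 3.66 ± 0.34 (adjusted p = 0.000224). All these calls held when each library was left out.

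The largest difference of all was that of H2-Ea-ps, annotated as a polymorphic pseudogene of an MHC class II chain, 17:34341959-34344645 on GRCm38. It was at 1.16 and 1.79 in the naive and 8.22 and 11.03 in the TFH libraries, a rise of 8.15 ± 1.74 (adjusted p = 0.0324). Class II chains of this kind are made in some mouse strains and lost in others, and B cells are among the main cells that express them. TFH replicate 2, the higher of the pair, also had the higher B cell marker sum given above. Naive replicate 1 had the highest B cell marker sum of the 4, though not the highest median marker. It had H2-Ea-ps at the lowest value of the tables, on which the size of the difference depends. The TFH cells came from (bxd)F1 hosts and the naive cells from mice with no transfer named, and the donor's strain is not given. B cells of the 2 groups may thus differ in strain, and their marker sums cannot be compared for this gene. The part of other cells, of host or donor, in this rise was not tested. Without 1 library the test no longer called H2-Ea-ps (any 1 of the 4 libraries, 7.83 at the weakest, adjusted p 3.44e-05 to 0.145 over all alternatives).

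**Figure D2:**
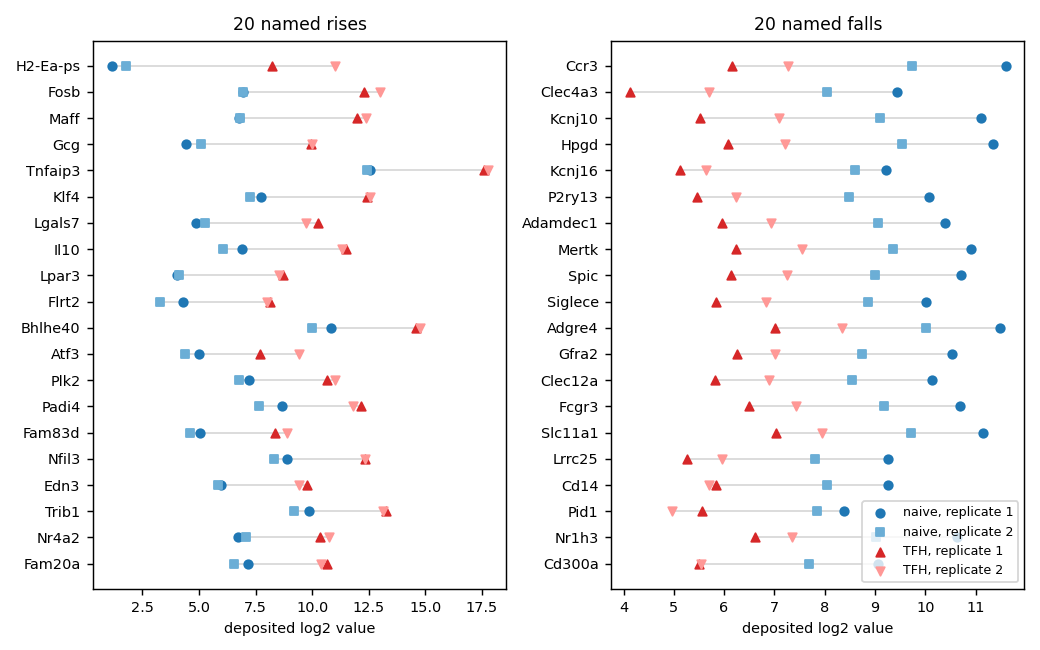
Deposited log2 values (horizontal axis) of the 20 named rises (left) and 20 named falls (right) in each of the 4 libraries, 1 marker per library. Among the falls, naive replicate 1 lies above naive replicate 2 for 20 of 20 genes, and among the rises for 14 of 20, against 42.6% of all genes. Tnfaip3 and Maff have their libraries in tight pairs, while Padi4, Il10 and H2-Ea-ps do not.

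The 20 named falls include Spic, the lineage factor of red pulp macrophages, Mertk, a receptor for apoptotic cells, Nr1h3, a sterol-sensing receptor, Cd14, and the Fc receptor gene Fcgr3. Spic was at 10.72 and 9.01 in the naive and 6.13 and 7.25 in the TFH libraries. Mertk was at 10.90 and 9.35 in the naive and 6.23 and 7.56 in the TFH libraries. Nr1h3 was at 10.64 and 9.03 in the naive and 6.62 and 7.34 in the TFH libraries. In each, naive replicate 1 was highest, naive replicate 2 next and the TFH libraries lowest. Of the 20 genes, 20 were higher in naive replicate 1 than in replicate 2, by a median of 1.49, against 42.6% of all genes and a median of -0.04. In TFH replicate 2, 18 of the 20 were higher than in replicate 1, by a median of 0.96. Spic fell by 3.17 ± 0.73 (adjusted p = 0.0345), Mertk fell by 3.23 ± 0.70 (adjusted p = 0.0283) and Nr1h3 fell by 2.85 ± 0.58 (adjusted p = 0.0196). Ccr3, the eotaxin receptor of eosinophils, was at 11.60 and 9.73 in the naive and 6.16 and 7.28 in the TFH libraries and fell by 3.95 ± 0.87 (adjusted p = 0.0349). Hpgd, which inactivates prostaglandins, fell by 3.80 ± 0.75 (adjusted p = 0.0238), and P2ry13, an ADP receptor, fell by 3.44 ± 0.62 (adjusted p = 0.0119). The calls that ended without 1 library were those of Spic (either TFH library, -2.62 at the weakest, adjusted p 0.00399 to 0.158 over all alternatives), Mertk (TFH replicate 1, -2.57 at the weakest, adjusted p 0.00313 to 0.157 over all alternatives), Nr1h3 (either TFH library, -2.49 at the weakest, adjusted p 0.000333 to 0.133 over all alternatives), Ccr3 (naive replicate 1 or either TFH library, -3.39 at the weakest, adjusted p 0.00287 to 0.162 over all alternatives), Hpgd (either TFH library, -3.24 at the weakest, adjusted p 0.00205 to 0.135 over all alternatives) and P2ry13 (either TFH library, -3.05 at the weakest, adjusted p 0.0011 to 0.0871 over all alternatives). Cd14 was at 9.26 and 8.05 in the naive and 5.85 and 5.70 in the TFH libraries and fell by 2.88 ± 0.36 (adjusted p = 0.000364). Kcnj16, a potassium channel gene, was at 9.22 and 8.61 in the naive and 5.13 and 5.64 in the TFH libraries and fell by 3.53 ± 0.27 (adjusted p = 5.52e-06). These, with Cd300a at -2.85 ± 0.44 (adjusted p = 0.00223), Pid1 at -2.86 ± 0.33 (adjusted p = 0.000118) and Siglece at -3.09 ± 0.48 (adjusted p = 0.00464), kept the call whichever library was left out.

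Markers of other cell types were counted beside these falls. Of 17 monocyte and macrophage markers, 15 had both TFH libraries below both naive libraries, against 32% of all genes. The median difference of the 17 was -2.73, and 2 were called, Cd14 and Ccr2, or 11.8% beside 13.7% of all genes called lower. Without the robust option 13 were called, and with a B cell covariate 11. Csf1r, which defines the lineage, was at 14.07 and 12.48 in the naive and 8.98 and 10.54 in the TFH libraries, and C1qa, a complement gene of macrophages, at 12.98 and 11.51 in the naive and 7.16 and 9.63 in the TFH libraries. Neither was at the floor of the tables in any library, and the difference for Csf1r was -3.52 ± 0.89 (adjusted p = 0.0562). Cybb, of the phagocyte oxidase, lay higher in both TFH libraries without being called, at 11.66 and 10.28 in the naive and 11.87 and 11.84 in the TFH libraries. Of 11 neutrophil markers, 9 lay lower in both TFH libraries, against 32% of all genes. Fpr1, a formyl peptide receptor, was at 8.83 and 7.09 in the naive and 2.73 and 3.42 in the TFH libraries. Fpr1 fell by 4.88 ± 0.59 (adjusted p = 0.000271). Fpr2 was at 6.99 and 5.14 in the naive and 1.47 and 1.16 in the TFH libraries, within the lowest values of the tables in both TFH libraries. The summed neutrophil markers were 13.16 and 11.96 in the naive and 10.34 and 10.91 in the TFH libraries. Their part in the falls of myeloid genes was not tested.

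Of 14 markers of CD8 T and NK cells, 13 lay lower in both TFH libraries, against 32% of all genes, and 8 were called lower, against 13.7%. Klrc1, an NK receptor gene, was at 10.21 and 9.77 in the naive and 7.02 and 7.28 in the TFH libraries and fell by 2.84 ± 0.24 (adjusted p = 1.62e-05). Klrb1c, the gene of NK1.1, was at 11.21 and 11.17 in the naive and 8.90 and 9.04 in the TFH libraries and fell by 2.22 ± 0.12 (adjusted p = 4.55e-07). Klrd1, the partner of the NKG2 receptors, fell by 2.51 ± 0.22 (adjusted p = 2.78e-05). The naive libraries thus held the higher level of NK receptor transcripts, with Cd8a at 7.58 and 7.55 in the naive and 5.70 and 7.12 in the TFH libraries and Gzma, a granzyme gene, at 10.49 and 10.74 in the naive and 8.51 and 10.15 in the TFH libraries. Donor spleen cells had been depleted of CD8 cells. Of 18 B cell markers 0 were called and 17 overlapped between groups. Cd79a, of the B cell receptor complex, was at 10.71 and 9.58 in the naive and 8.27 and 10.96 in the TFH libraries, lowest in TFH replicate 1. By limma 0 of 7 dendritic cell markers and 0 of 5 erythroid and platelet markers were called. At an unadjusted p below 0.05 these counts were 0 for B cell, 1 for dendritic cell and 1 for erythroid and platelet markers.

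**Figure D3:**
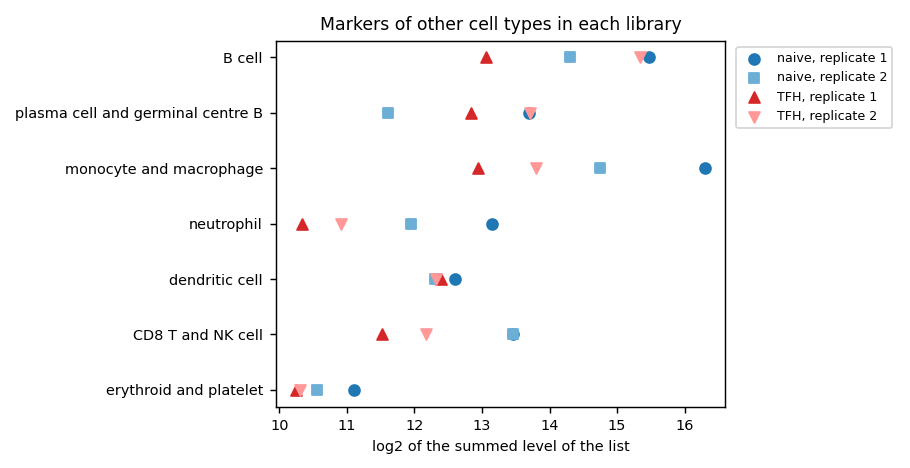
Summed level of each list of markers of other cell types (log2 of the sum of linear values, horizontal axis) in the 4 libraries, 1 marker per library. Monocyte and macrophage, neutrophil and CD8 T and NK markers are higher in both naive libraries, while B cell markers run from 13.05 to 15.35 within the TFH libraries.

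Among transcription factors linked to the TFH fate, as drivers or otherwise, 6 of 14 rose and 3 fell, with a median difference of 0.61. Ascl2, a helix-loop-helix factor that turns on Cxcr5, was at 6.33 and 6.26 in the naive and 9.17 and 8.84 in the TFH libraries and rose by 2.71 ± 0.26 (adjusted p = 3.24e-05). Irf4, a factor of activated lymphocytes, was at 11.27 and 11.02 in the naive and 12.29 and 12.43 in the TFH libraries and rose by 1.22 ± 0.18 (adjusted p = 0.00148). Bcl6 was at 11.18 and 10.78 in the naive and 11.72 and 11.70 in the TFH libraries and rose by 0.73 ± 0.19 (adjusted p = 0.0253). In all 3 the groups did not overlap, as for every called gene, and Bcl6 had the smallest gap. Tox2 was at 9.61 and 8.62 in the naive and 10.84 and 10.73 in the TFH libraries and rose by 1.67 ± 0.33 (adjusted p = 0.0134). Nfatc1 and Tox, which act downstream of calcium and antigen receptor signals, rose by 0.50 ± 0.12 (adjusted p = 0.01) and 0.48 ± 0.11 (adjusted p = 0.00713). Dependent on 1 library were the calls of Bcl6 (naive replicate 2 or either TFH library, 0.53 at the weakest, adjusted p 0.00177 to 0.13 over all alternatives), Tox2 (either TFH library, 1.62 at the weakest, adjusted p 0.000381 to 0.091 over all alternatives), Nfatc1 (naive replicate 2 or either TFH library, 0.34 at the weakest, adjusted p 0.00568 to 0.0993 over all alternatives) and Tox (naive replicate 2 or TFH replicate 1, 0.39 at the weakest, adjusted p 0.00512 to 0.0732 over all alternatives).

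Tcf7 and Lef1, which encode the HMG box factors TCF1 and LEF1 of naive and TFH cells, both went down. Tcf7 was at 16.68 and 16.49 in the naive and 16.24 and 16.29 in the TFH libraries and fell by 0.32 ± 0.11 (adjusted p = 0.0464). Lef1 was at 13.995 and 14.26 in the naive and 13.51 and 13.27 in the TFH libraries and fell by 0.74 ± 0.16 (adjusted p = 0.00667). Id3, an inhibitor of E proteins, was at 11.22 and 11.33 in the naive and 10.59 and 10.58 in the TFH libraries and fell by 0.69 ± 0.10 (adjusted p = 0.000671). The TFH libraries thus had less of all 3, most firmly of Id3. Maf, at 0.86 ± 0.37 (adjusted p = 0.168), Batf, at 0.86 ± 0.27 (adjusted p = 0.0672), and Pou2af1, at 0.82 ± 0.45 (adjusted p = 0.265), lay higher in both TFH libraries without being called. Stat3 at 0.17 ± 0.11 (adjusted p = 0.306) and Bach2 at -0.06 ± 0.20 (adjusted p = 0.863) differed least. When 1 library was left out, the threshold was missed by Lef1 (naive replicate 2 or TFH replicate 2, -0.61 at the weakest, adjusted p 0.000877 to 0.0614 over all alternatives) and Tcf7 (naive replicate 1 or either TFH library, -0.22 at the weakest, adjusted p 0.0361 to 0.256 over all alternatives).

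Of 14 factors and receptors that oppose the TFH fate, 6 fell and 2 rose. Il7r, the IL-7 receptor chain, was at 14.40 and 14.66 in the naive and 12.83 and 13.05 in the TFH libraries and fell by 1.59 ± 0.15 (adjusted p = 4.05e-05). Selplg, which encodes the homing ligand PSGL-1, was at 14.98 and 14.93 in the naive and 14.15 and 13.96 in the TFH libraries and fell by 0.90 ± 0.13 (adjusted p = 0.000468). S1pr1, which guides exit from lymphoid organs, was at 14.64 and 14.91 in the naive and 14.23 and 14.15 in the TFH libraries and fell by 0.59 ± 0.12 (adjusted p = 0.00408). These 3 kept the call under each alternative. Tbx21, the master factor of Th1 cells, was at 11.04 and 10.66 in the naive and 9.92 and 9.99 in the TFH libraries and fell by 0.90 ± 0.24 (adjusted p = 0.0285). Foxo1 and Il2ra, the IL-2 receptor chain, fell, at -0.47 ± 0.12 (adjusted p = 0.0147) and -0.39 ± 0.10 (adjusted p = 0.0162). Klf2, which drives S1pr1, went up, at 13.77 and 14.04 in the naive and 14.47 and 14.37 in the TFH libraries, and rose by 0.52 ± 0.11 (adjusted p = 0.00646). Klf2 and S1pr1 thus moved in opposite directions in the same libraries. Stat5a rose by 0.32 ± 0.11 (adjusted p = 0.0429). Prdm1, the gene of BLIMP1, at 0.60 ± 0.28 (adjusted p = 0.158), and Ccr7, at -0.03 ± 0.12 (adjusted p = 0.891), were not called. Leaving out 1 library ended the calls of Tbx21 (naive replicate 1 or either TFH library, -0.86 at the weakest, adjusted p 0.00044 to 0.195 over all alternatives), Foxo1 (naive replicate 2 or TFH replicate 1, -0.39 at the weakest, adjusted p 0.00778 to 0.113 over all alternatives), Il2ra (naive replicate 1 or TFH replicate 1, -0.31 at the weakest, adjusted p 0.0131 to 0.141 over all alternatives), Klf2 (naive replicate 1 or TFH replicate 1, 0.38 at the weakest, adjusted p 0.00466 to 0.0639 over all alternatives) and Stat5a (any 1 of the 4 libraries, 0.23 at the weakest, adjusted p 0.0286 to 0.242 over all alternatives).

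**Figure D4:**
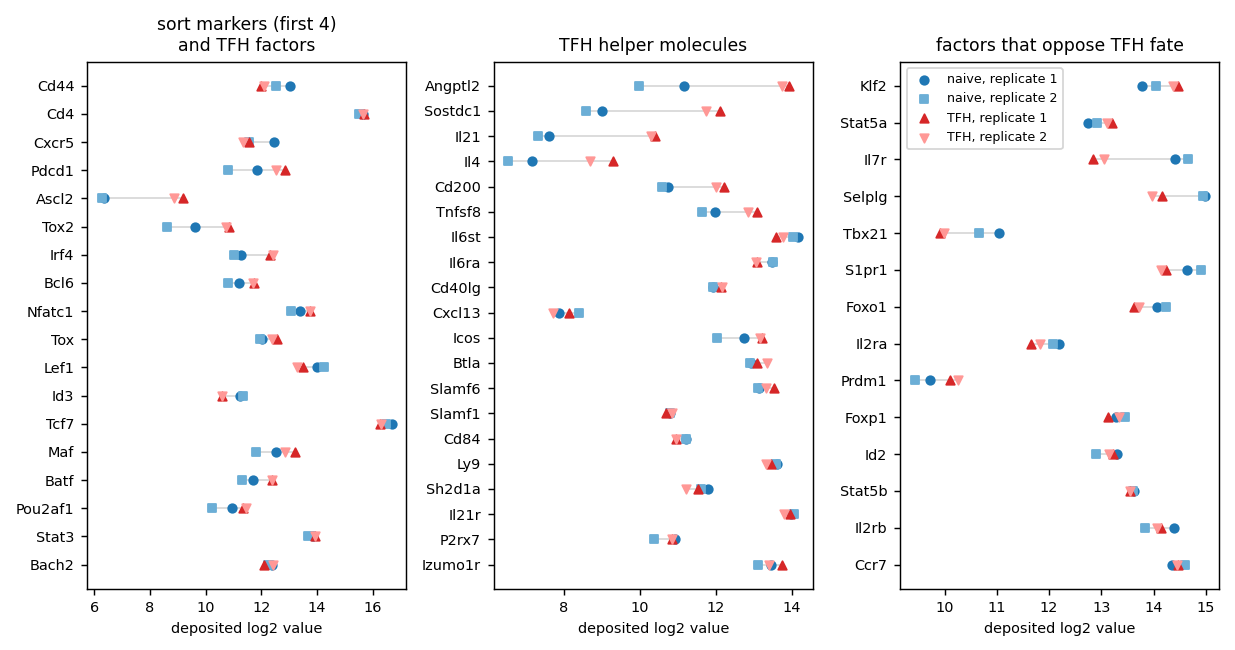
Deposited log2 values (horizontal axis) of 4 sort markers, TFH factors, TFH helper molecules and factors that oppose the TFH fate in the 4 libraries, 1 marker per library. Ascl2, Il21, Il4 and Cd200 have TFH libraries well above naive libraries and Il7r well below, while Cd4 and Stat3 differ little.

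Of 20 molecules through which TFH cells help B cells, 6 rose and 2 fell. Il21 was at 7.59 and 7.31 in the naive and 10.40 and 10.28 in the TFH libraries and rose by 2.89 ± 0.24 (adjusted p = 1.56e-05). Il4 was at 7.16 and 6.53 in the naive and 9.29 and 8.67 in the TFH libraries and rose by 2.13 ± 0.26 (adjusted p = 0.000224). Cd200, an inhibitory ligand carried by TFH cells, was at 10.73 and 10.59 in the naive and 12.21 and 11.996 in the TFH libraries and rose by 1.44 ± 0.12 (adjusted p = 1.38e-05). Tnfsf8, the gene of CD30 ligand, was at 11.98 and 11.64 in the naive and 13.10 and 12.85 in the TFH libraries and rose by 1.16 ± 0.18 (adjusted p = 0.00186). These 4 separated cleanly and kept the call under each alternative. Angptl2 and Sostdc1, secreted proteins found in TFH cells, had larger differences with more spread. Angptl2 was at 11.17 and 9.98 in the naive and 13.94 and 13.75 in the TFH libraries and rose by 3.27 ± 0.53 (adjusted p = 0.0152). Sostdc1 was at 9.004 and 8.57 in the naive and 12.10 and 11.74 in the TFH libraries and rose by 3.13 ± 0.60 (adjusted p = 0.0235). Il6ra and Il6st, the chains of the IL-6 receptor, fell, at -0.43 ± 0.14 (adjusted p = 0.041) and -0.43 ± 0.11 (adjusted p = 0.0125). Icos, at 0.80 ± 0.25 (adjusted p = 0.0629), Cd40lg, at 0.23 ± 0.10 (adjusted p = 0.112), the SLAM receptor gene Slamf6, at 0.30 ± 0.11 (adjusted p = 0.0779), and Sh2d1a, the gene of the adaptor SAP of SLAM receptors, at -0.32 ± 0.19 (adjusted p = 0.27), were not called. Without 1 library the test no longer called Angptl2 (either TFH library, 3.17 at the weakest, adjusted p 0.000701 to 0.162 over all alternatives), Sostdc1 (any 1 of the 4 libraries, 2.95 at the weakest, adjusted p 3.95e-06 to 0.164 over all alternatives), Il6ra (any 1 of the 4 libraries, -0.41 at the weakest, adjusted p 0.00872 to 0.16 over all alternatives) and Il6st (naive replicate 1 or TFH replicate 1, -0.34 at the weakest, adjusted p 0.00661 to 0.116 over all alternatives).

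Among 21 cytokine and chemokine genes 7 rose and 5 fell. Lif, of the IL-6 family, was at 7.80 and 6.96 in the naive and 10.93 and 10.89 in the TFH libraries and rose by 3.53 ± 0.35 (adjusted p = 0.000474). Csf1, the growth factor of macrophages, was at 9.06 and 8.73 in the naive and 11.49 and 11.34 in the TFH libraries and rose by 2.52 ± 0.35 (adjusted p = 0.00382). Cxcl10, the interferon-induced ligand of CXCR3, rose by 2.70 ± 0.55 (adjusted p = 0.0216). Among those that fell, Il16, a CD4 ligand, was at 14.75 and 14.70 in the naive and 13.79 and 13.62 in the TFH libraries and fell by 1.02 ± 0.10 (adjusted p = 4.47e-05). Ltb, which builds lymphoid tissue as a lymphotoxin chain, was at 15.13 and 15.19 in the naive and 14.38 and 14.21 in the TFH libraries and fell by 0.87 ± 0.13 (adjusted p = 0.000556), and Lta, its partner, fell by 0.58 ± 0.14 (adjusted p = 0.00944). Both lymphotoxin chains thus lay lower in TFH, while Tnf, of the same family, rose by 0.87 ± 0.16 (adjusted p = 0.0032). Tnfsf11, the gene of RANK ligand, rose by 1.10 ± 0.16 (adjusted p = 0.000556). The calls that ended without 1 library were those of Cxcl10 (naive replicate 2 or either TFH library, 2.55 at the weakest, adjusted p 0.00277 to 0.181 over all alternatives) and Lta (naive replicate 2 or TFH replicate 1, -0.49 at the weakest, adjusted p 0.00543 to 0.0763 over all alternatives).

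Inhibitory and costimulatory receptors moved in both directions. Of 13 inhibitory receptors 4 rose and 3 fell, and of 19 costimulatory receptors and TNF family ligands 4 rose and 6 fell. Ctla4, which competes for B7 ligands, was at 12.24 and 11.80 in the naive and 14.53 and 14.49 in the TFH libraries and rose by 2.50 ± 0.23 (adjusted p = 0.000341). Lag3, a class II receptor, was at 11.28 and 9.85 in the naive and 13.66 and 13.26 in the TFH libraries and rose by 2.89 ± 0.68 (adjusted p = 0.046). Cd200r1, the receptor for CD200, was at 10.51 and 10.40 in the naive and 9.76 and 9.59 in the TFH libraries and fell by 0.78 ± 0.14 (adjusted p = 0.00178). Ligand and receptor of this pair thus went in opposite directions. Cd226, which competes with TIGIT for ligands, was at 11.69 and 11.69 in the naive and 10.86 and 10.88 in the TFH libraries and fell by 0.82 ± 0.12 (adjusted p = 0.000515). Tnfrsf25, the gene of death receptor 3, fell by 0.91 ± 0.16 (adjusted p = 0.00204), and Tnfrsf4, the gene of OX40, rose by 1.15 ± 0.29 (adjusted p = 0.0356). Havcr2, the gene of TIM-3, rose by 1.33 ± 0.28 (adjusted p = 0.0059). Dependent on 1 library were the calls of Lag3 (naive replicate 2 or either TFH library, 2.69 at the weakest, adjusted p 0.00332 to 0.233 over all alternatives), Tnfrsf4 (naive replicate 2 or either TFH library, 1.11 at the weakest, adjusted p 0.000242 to 0.203 over all alternatives) and Havcr2 (naive replicate 2, 1.11 at the weakest, adjusted p 0.000781 to 0.0569 over all alternatives).

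Of 24 homing and egress receptors 6 rose and 10 fell, with a median difference of -0.57. Cd69, which holds cells in tissue by pulling S1PR1 from the surface, was at 11.60 and 11.64 in the naive and 14.02 and 14.17 in the TFH libraries and rose by 2.48 ± 0.10 (adjusted p = 4.22e-08). Gpr183, the oxysterol receptor EBI2 that steers cells within the follicle, was at 12.47 and 12.58 in the naive and 13.44 and 13.44 in the TFH libraries and rose by 0.92 ± 0.09 (adjusted p = 5.44e-05). Ccr8 rose by 1.18 ± 0.21 (adjusted p = 0.00169). These rises stood against falls of several chemokine receptors and of S1pr4. Cxcr6 was at 12.70 and 12.10 in the naive and 9.92 and 9.73 in the TFH libraries and fell by 2.57 ± 0.24 (adjusted p = 0.000398). Ccr4 was at 10.21 and 9.90 in the naive and 9.05 and 8.90 in the TFH libraries and fell by 1.08 ± 0.17 (adjusted p = 0.000867). S1pr4 was at 13.30 and 13.58 in the naive and 12.42 and 12.21 in the TFH libraries and fell by 1.12 ± 0.12 (adjusted p = 7.87e-05). Cxcr3, Ccr2 and Ccr9 were also lower in both TFH libraries, Cxcr3 at 12.51 and 11.94 against 10.89 and 10.66, Ccr2 at 11.17 and 10.49 against 9.58 and 9.48 and Ccr9 at 10.62 and 9.96 against 9.05 and 8.82, naive against TFH. Ccr2 is also a member of the monocyte list above, whose part in its fall was not tested. NK receptor genes fell in the same libraries, and the part of NK cells in the falls of Cxcr6 and Cxcr3 was not tested. Cxcr3 fell by 1.45 ± 0.28 (adjusted p = 0.0132). S1pr2, which confines cells to germinal centres, rose by 0.83 ± 0.22 (adjusted p = 0.0199), and Cxcr4 rose by 0.46 ± 0.12 (adjusted p = 0.0134). When 1 library was left out, the threshold was missed by Cxcr3 (either TFH library, -1.34 at the weakest, adjusted p 0.00332 to 0.145 over all alternatives), S1pr2 (naive replicate 2 or TFH replicate 1, 0.60 at the weakest, adjusted p 0.00586 to 0.12 over all alternatives) and Cxcr4 (naive replicate 2 or either TFH library, 0.35 at the weakest, adjusted p 0.00802 to 0.114 over all alternatives). Leaving out replicate 2 of both TFH groups ended the calls of Ccr2 (adjusted p = 0.0636, from 0.000464 over the alternatives) and Ccr9 (adjusted p = 0.066, from 0.00137).

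Genes of the early response to stimulation rose in several families. AP-1 factors are dimers of FOS, JUN and ATF proteins that respond to MAP kinases. Of 12 AP-1 and small MAF factors 10 rose and 0 fell, with a median difference of 2.21, and 7 of the 10 kept the call when each library was left out. The list's summed level was 15.51 and 15.71 in the naive and 17.67 and 17.68 in the TFH libraries. Fos was at 11.49 and 12.38 in the naive and 14.71 and 14.67 in the TFH libraries and rose by 2.76 ± 0.28 (adjusted p = 0.00107). Jun was at 11.96 and 13.10 in the naive and 15.17 and 15.22 in the TFH libraries and rose by 2.67 ± 0.37 (adjusted p = 0.00635). Fosl2 was at 9.01 and 9.02 in the naive and 11.10 and 11.45 in the TFH libraries and rose by 2.26 ± 0.14 (adjusted p = 8.68e-07). Within the naive pair Fos and Jun were higher in replicate 2, while Fosl2 was level. Leaving out 1 library ended the call of Jun (either TFH library, 2.64 at the weakest, adjusted p 1.35e-06 to 0.117 over all alternatives).

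Of 14 EGR, NR4A and IER genes 9 rose and 0 fell, and 8 of the 9 kept the call when each library was left out. Nr4a1, the gene of NUR77 and a reporter of antigen receptor signals, was at 11.76 and 11.86 in the naive and 14.22 and 14.29 in the TFH libraries and rose by 2.45 ± 0.10 (adjusted p = 5.13e-08). Nr4a3 was at 8.29 and 8.26 in the naive and 9.38 and 9.91 in the TFH libraries and rose by 1.37 ± 0.20 (adjusted p = 0.000551). Gem, a small GTPase that blocks calcium channels, was at 7.95 and 7.96 in the naive and 10.89 and 11.13 in the TFH libraries and rose by 3.05 ± 0.30 (adjusted p = 0.00035). All 3 NR4A receptors thus rose together with Nr4a2 above. Arc, an early gene better known from neurons, rose by 1.68 ± 0.18 (adjusted p = 7.38e-05), and Ier5 rose by 1.33 ± 0.12 (adjusted p = 1.7e-05).

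NF-kB is held in the cytoplasm by inhibitors that it induces itself. Of 23 NF-kB subunits and targets 11 rose and 1 fell. Nfkbia, the main inhibitor, was at 13.78 and 13.68 in the naive and 16.21 and 16.44 in the TFH libraries and rose by 2.59 ± 0.13 (adjusted p = 1.92e-07). Nfkbiz, a nuclear co-activator, was at 11.41 and 11.67 in the naive and 14.16 and 14.55 in the TFH libraries and rose by 2.81 ± 0.15 (adjusted p = 8.79e-07). Map3k8, an upstream kinase of the MAP kinase pathway, rose by 1.41 ± 0.19 (adjusted p = 0.000517). The inhibitors Tnfaip3 and Nfkbia had thus larger differences than the subunit gene Rel, which was at 10.27 and 10.05 in the naive and 11.17 and 11.80 in the TFH libraries and rose by 1.33 ± 0.29 (adjusted p = 0.0182). Cyld, another deubiquitinating brake, fell by 0.30 ± 0.10 (adjusted p = 0.0372), so the brakes did not all move one way. Without 1 library the test no longer called Rel (either naive library, 1.22 at the weakest, adjusted p 0.000106 to 0.0937 over all alternatives) and Cyld (any 1 of the 4 libraries, -0.27 at the weakest, adjusted p 0.0242 to 0.184 over all alternatives).

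MAP kinase phosphatases switch off the kinases that induce them. Of 15 such phosphatases and Sprouty genes 10 rose and 1 fell, with a median difference of 1.17. Dusp1 was at 11.71 and 11.87 in the naive and 14.94 and 14.92 in the TFH libraries and rose by 3.14 ± 0.11 (adjusted p = 8.38e-09). Dusp4 was at 8.62 and 8.43 in the naive and 11.45 and 11.82 in the TFH libraries and rose by 3.11 ± 0.15 (adjusted p = 1.31e-07). Dusp10 was at 11.62 and 11.63 in the naive and 14.47 and 14.40 in the TFH libraries and rose by 2.81 ± 0.13 (adjusted p = 9.57e-08). Replicates lay within narrow pairs in each. Dusp5 rose by 2.45 ± 0.16 (adjusted p = 2.33e-06), and Spry1, an inhibitor of receptor signalling, rose by 2.15 ± 0.18 (adjusted p = 2.46e-05). Dusp7, a phosphatase of ERK in the cytoplasm, went the other way, at 11.70 and 11.80 in the naive and 10.58 and 10.32 in the TFH libraries, and fell by 1.30 ± 0.14 (adjusted p = 6.78e-05).

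Of 13 KLF and SP factors 7 rose and 0 fell. Klf6 was at 12.84 and 12.82 in the naive and 15.16 and 15.32 in the TFH libraries and rose by 2.41 ± 0.11 (adjusted p = 1.03e-07). Klf11 was at 8.52 and 8.27 in the naive and 11.43 and 11.77 in the TFH libraries and rose by 3.20 ± 0.20 (adjusted p = 3.32e-06). Klf9 was at 7.33 and 7.67 in the naive and 8.69 and 9.20 in the TFH libraries and rose by 1.44 ± 0.22 (adjusted p = 0.000788). Klf4, Klf11 and Klf6 thus had the largest rises of the family. Of 12 genes of mRNA decay and antiproliferative proteins 8 rose and 0 fell. Zfp36, which destroys cytokine mRNAs by their AU-rich elements, was at 13.95 and 14.24 in the naive and 15.50 and 15.63 in the TFH libraries and rose by 1.47 ± 0.12 (adjusted p = 6.71e-06). Zc3h12a, the gene of the RNase regnase-1, was at 11.28 and 11.24 in the naive and 12.86 and 13.46 in the TFH libraries and rose by 1.90 ± 0.19 (adjusted p = 0.000345). Btg1, a deadenylation factor of quiescent T cells, was at 15.80 and 15.76 in the naive and 16.60 and 16.74 in the TFH libraries and rose by 0.89 ± 0.10 (adjusted p = 9.58e-05). Tob1 and Tob2, of the same family, rose by 1.55 ± 0.15 (adjusted p = 5.36e-05) and rose by 1.55 ± 0.11 (adjusted p = 2.64e-06).

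Chaperones keep proteins folded under stress. Of 23 heat shock chaperones 13 rose and 0 fell. Hsp90aa1, the inducible HSP90, was at 13.85 and 13.60 in the naive and 15.09 and 15.21 in the TFH libraries and rose by 1.42 ± 0.11 (adjusted p = 6.32e-06). Dnajb4, a co-chaperone, was at 9.21 and 9.24 in the naive and 10.92 and 11.22 in the TFH libraries and rose by 1.84 ± 0.13 (adjusted p = 3.03e-06). Hsp90ab1, the constitutive HSP90, rose by 0.76 ± 0.15 (adjusted p = 0.00383). The integrated stress response slows translation by phosphorylating eIF2, and 7 of its 16 genes rose and 2 fell. Ppp1r15a, the phosphatase subunit GADD34 that ends the response, was at 12.10 and 12.64 in the naive and 15.77 and 15.81 in the TFH libraries and rose by 3.42 ± 0.16 (adjusted p = 3.16e-07). Atf4, its main factor, was at 13.27 and 13.54 in the naive and 14.69 and 14.66 in the TFH libraries and rose by 1.28 ± 0.12 (adjusted p = 2.72e-05). Gadd45b was at 9.66 and 9.55 in the naive and 12.58 and 12.79 in the TFH libraries and rose by 3.08 ± 0.18 (adjusted p = 8.83e-06). Ddit4, an inhibitor of mTORC1, was at 12.89 and 13.07 in the naive and 11.67 and 11.46 in the TFH libraries. Ddit4 fell by 1.41 ± 0.15 (adjusted p = 7.44e-05) and was 1 of the 2 members called lower. In the unfolded protein response of the endoplasmic reticulum 4 of 20 rose and 1 fell, a called share of 25% near the 26.3% of all genes. Hspa5, the chaperone BiP, was at 14.38 and 14.005 in the naive and 16.19 and 16.42 in the TFH libraries and rose by 2.11 ± 0.13 (adjusted p = 1.58e-06), and Dnajb9 rose by 3.36 ± 0.13 (adjusted p = 2.41e-08).

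Among 11 genes induced by glucocorticoids 5 rose and 1 fell, and among 15 clock genes 5 rose and 1 fell. Per1, which belongs to both, was at 11.53 and 11.59 in the naive and 13.91 and 14.53 in the TFH libraries and rose by 2.66 ± 0.25 (adjusted p = 0.000517). Ciart, a clock repressor, was at 6.13 and 7.11 in the naive and 9.73 and 10.15 in the TFH libraries and rose by 3.32 ± 0.29 (adjusted p = 7.32e-05). Dbp, a clock output factor, was at 9.14 and 9.59 in the naive and 8.27 and 8.23 in the TFH libraries and fell by 1.12 ± 0.20 (adjusted p = 0.00169). Period and output gene thus went apart. The labels give no hour of collection. Il1r2, a decoy receptor for IL-1, was at 8.58 and 8.06 in the naive and 10.97 and 10.88 in the TFH libraries and rose by 2.60 ± 0.54 (adjusted p = 0.024). Sgk1, a kinase of salt balance, rose by 0.47 ± 0.14 (adjusted p = 0.031). The calls that ended without 1 library were those of Il1r2 (any 1 of the 4 libraries, 2.56 at the weakest, adjusted p 7.73e-07 to 0.161 over all alternatives) and Sgk1 (naive replicate 1 or either TFH library, 0.24 at the weakest, adjusted p 0.00637 to 0.249 over all alternatives).

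Most listed genes of cell division rose. Of 47 genes of DNA replication and the G1 to S transition 42 rose and 0 fell, with a median difference of 0.95, and 32 of the 42 kept the call when each library was left out. The list's summed level was 16.14 and 16.04 in the naive and 16.97 and 17.003 in the TFH libraries. Clspn, a checkpoint adaptor at replication forks, was at 8.81 and 8.73 in the naive and 10.47 and 10.64 in the TFH libraries and rose by 1.79 ± 0.15 (adjusted p = 1.04e-05). Chaf1a, which places histones on new DNA, was at 8.73 and 8.41 in the naive and 10.41 and 10.49 in the TFH libraries and rose by 1.88 ± 0.29 (adjusted p = 0.0024). E2f1, the factor that opens S phase, was at 8.28 and 7.97 in the naive and 9.82 and 9.92 in the TFH libraries and rose by 1.74 ± 0.21 (adjusted p = 0.000139). Cdc6, which loads the replicative helicase, rose by 1.71 ± 0.24 (adjusted p = 7e-04). TFH replicates were close to each other for these genes.

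Of 44 genes of mitosis and G2 34 rose and 2 fell, with a median difference of 1.38. The summed level was 15.98 and 15.98 in the naive and 16.41 and 16.74 in the TFH libraries. In this sum the TFH replicates were less alike than for replication genes and the naive replicates more alike. The median member, relative to the mean of the 4 libraries, was at -0.55 and -0.75 in the naive and 0.47 and 0.90 in the TFH libraries. For replication genes it was at -0.48 and -0.51 in the naive and 0.45 and 0.52 in the TFH libraries. By the median both pairs were thus less alike for mitosis genes. Birc5, the gene of survivin, was at 7.25 and 6.92 in the naive and 8.86 and 9.18 in the TFH libraries and rose by 1.94 ± 0.33 (adjusted p = 0.00338). Foxm1, the factor of G2 genes, was at 8.89 and 8.53 in the naive and 10.48 and 11.12 in the TFH libraries and rose by 2.09 ± 0.39 (adjusted p = 0.0126). Aurkb, a mitotic kinase, was at 8.50 and 8.02 in the naive and 10.02 and 10.25 in the TFH libraries and rose by 1.88 ± 0.49 (adjusted p = 0.043). TFH replicate 2, which also had the higher B cell marker sum, was the higher of the pair in each. With the B cell marker mean as covariate 41 rose and 2 fell. Fewer were called when 1 library was left out: 10 rose without naive replicate 2, 11 without TFH replicate 2, 19 without naive replicate 1 and 24 without TFH replicate 1, with medians from 1.18 to 1.58. Dependent on 1 library were the calls of Foxm1 (naive replicate 2 or TFH replicate 2, 1.91 at the weakest, adjusted p 1.15e-06 to 0.0735 over all alternatives) and Aurkb (any 1 of the 4 libraries, 1.76 at the weakest, adjusted p 1.48e-05 to 0.189 over all alternatives). Pttg1, the gene of securin, was at 10.45 and 10.49 in the naive and 9.85 and 9.80 in the TFH libraries and fell by 0.65 ± 0.12 (adjusted p = 0.00245).

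Cdkn1a, the inhibitor p21, was at 6.88 and 6.01 in the naive and 8.72 and 8.79 in the TFH libraries and rose by 2.31 ± 0.42 (adjusted p = 0.00619). Cdk6, a G1 kinase, was at 10.55 and 10.28 in the naive and 11.45 and 11.79 in the TFH libraries and rose by 1.20 ± 0.25 (adjusted p = 0.0128). Rbl2, a pocket protein of quiescent cells, was at 13.13 and 13.18 in the naive and 12.50 and 12.48 in the TFH libraries and fell by 0.66 ± 0.10 (adjusted p = 0.000839). Of 15 targets of p53 6 rose and 1 fell. Plk3, a stress kinase, rose by 1.98 ± 0.20 (adjusted p = 0.000289), and Pmaip1, the BH3 protein NOXA, was at 8.20 and 7.51 in the naive and 10.60 and 10.86 in the TFH libraries and rose by 2.87 ± 0.29 (adjusted p = 0.000367). In the BCL2 family 4 of 14 rose and 3 fell. Mcl1, which keeps T cells alive, was at 14.83 and 14.74 in the naive and 15.58 and 15.42 in the TFH libraries and rose by 0.71 ± 0.10 (adjusted p = 0.000518). Bcl2 was at 9.43 and 9.86 in the naive and 10.57 and 10.39 in the TFH libraries and rose by 0.84 ± 0.19 (adjusted p = 0.00775). Bmf, a BH3 killer protein, was at 9.22 and 9.21 in the naive and 6.89 and 6.86 in the TFH libraries and fell by 2.34 ± 0.19 (adjusted p = 9.04e-06). NOXA and BMF, both promoters of death, thus went in opposite directions. When 1 library was left out, the threshold was missed by Cdk6 (naive replicate 2 or TFH replicate 2, 1.03 at the weakest, adjusted p 1.8e-05 to 0.075 over all alternatives) and Bcl2 (naive replicate 1 or TFH replicate 1, 0.62 at the weakest, adjusted p 0.00209 to 0.0684 over all alternatives). Leaving out replicate 2 of both TFH groups ended the call of Cdkn1a (2.28, adjusted p = 0.0717, from 0.000154 over the alternatives).

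Of 23 genes of naive and quiescent T cells 12 fell and 3 rose, and 9 of the 15 kept the call when each library was left out. Txk, a TEC family kinase, was at 12.80 and 13.03 in the naive and 11.87 and 11.78 in the TFH libraries and fell by 1.09 ± 0.11 (adjusted p = 4.1e-05). Actn1, which links actin to adhesion sites, was at 14.57 and 14.72 in the naive and 13.54 and 13.70 in the TFH libraries and fell by 1.03 ± 0.14 (adjusted p = 0.000474). Dapl1 was at 12.61 and 12.81 in the naive and 11.34 and 11.27 in the TFH libraries and fell by 1.41 ± 0.25 (adjusted p = 0.00725). Slfn2, which guards quiescence, fell by 0.87 ± 0.11 (adjusted p = 0.000311), and Pik3ip1, a brake on PI3K, fell by 0.92 ± 0.13 (adjusted p = 0.000372). The rises in this list were Tob1, Btg1 and Klf2, given above. Of 23 genes of effector and memory T cells 5 fell and 0 rose. Ly6c2 was at 10.38 and 9.92 in the naive and 8.40 and 8.45 in the TFH libraries and fell by 1.72 ± 0.35 (adjusted p = 0.0116). Hopx was at 11.08 and 10.82 in the naive and 9.90 and 9.67 in the TFH libraries and fell by 1.16 ± 0.23 (adjusted p = 0.0078). Crip1 fell by 0.72 ± 0.13 (adjusted p = 0.00223). The effector list thus had a called share of 21.7%, below the 26.3% of all genes. All of its calls were falls, against 13.7% of all genes called lower, and 0 rose against 12.6%. With only the compared groups in the fit 3 rose and 7 fell. The NK and myeloid markers given above were lower in the same libraries, and their part was not tested. Leaving out 1 library ended the calls of Dapl1 (TFH replicate 2, -1.37 at the weakest, adjusted p 1.37e-06 to 0.0618 over all alternatives), Ly6c2 (naive replicate 1 or either TFH library, -1.70 at the weakest, adjusted p 1.74e-05 to 0.0843 over all alternatives) and Hopx (TFH replicate 2, -1.05 at the weakest, adjusted p 4.97e-05 to 0.0703 over all alternatives).

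Lineage programs other than TFH split. Of 22 Th1 and cytotoxic genes 8 fell and 1 rose, with a median difference of -0.70. Prf1, the gene of perforin, was at 11.003 and 10.85 in the naive and 8.88 and 9.14 in the TFH libraries and fell by 1.92 ± 0.13 (adjusted p = 2.55e-06). Ctsw, a cathepsin of killer cells, was at 12.03 and 12.15 in the naive and 11.24 and 11.28 in the TFH libraries and fell by 0.84 ± 0.12 (adjusted p = 0.000398). Both are also expressed by NK cells, whose receptor genes fell in the same libraries, and their part in this result was not tested. Of 10 Th2 and Th17 genes 4 rose and 2 fell. Gata3, the master factor of Th2 cells, was at 11.58 and 11.77 in the naive and 12.41 and 12.41 in the TFH libraries and rose by 0.73 ± 0.11 (adjusted p = 0.000562). Ahr, a sensor of aryl hydrocarbons, rose by 1.004 ± 0.21 (adjusted p = 0.00525). Among 19 genes of regulatory T cells there were 7 rises and 2 falls. Areg, the gene of amphiregulin, was at 5.85 and 5.67 in the naive and 8.88 and 8.88 in the TFH libraries and rose by 3.12 ± 0.48 (adjusted p = 0.00344). Lrrc32, which presents latent TGF-beta, was at 10.95 and 10.73 in the naive and 11.67 and 11.61 in the TFH libraries and rose by 0.80 ± 0.11 (adjusted p = 0.000341). Foxp3, which defines the lineage, was at 12.60 and 12.53 in the naive and 12.32 and 12.51 in the TFH libraries, a difference of -0.15 ± 0.11 (adjusted p = 0.344). Without 1 library the test no longer called Ahr (TFH replicate 2, 0.77 at the weakest, adjusted p 0.000781 to 0.0569 over all alternatives).

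Of 28 cytokine receptor and SOCS genes 10 fell and 3 rose. Il4ra, the IL-4 receptor chain, was at 14.08 and 14.21 in the naive and 15.20 and 15.20 in the TFH libraries and rose by 1.05 ± 0.11 (adjusted p = 4.79e-05). Il10rb, shared by receptors of the IL-10 family, was at 12.21 and 11.88 in the naive and 10.74 and 10.90 in the TFH libraries and fell by 1.22 ± 0.12 (adjusted p = 4.47e-05). Il18r1 was at 10.33 and 10.59 in the naive and 9.72 and 9.76 in the TFH libraries and fell by 0.72 ± 0.14 (adjusted p = 0.00286). For IL-4 both ligand and receptor were thus higher, while for IL-10 the ligand was higher and the receptor chain lower. Of 31 genes close to the T cell receptor 9 fell and 6 rose. Themis, which tunes receptor signals, fell by 0.67 ± 0.14 (adjusted p = 0.00447), and Grap2, an adaptor, fell by 0.64 ± 0.11 (adjusted p = 0.00204). Bcl10, of the complex that leads to NF-kB, was at 11.63 and 11.71 in the naive and 12.27 and 12.18 in the TFH libraries and rose by 0.55 ± 0.11 (adjusted p = 0.00421), and its partner Malt1 rose by 0.48 ± 0.12 (adjusted p = 0.0107). Cd5 and Cd6, brakes on the receptor, fell by 0.76 ± 0.12 (adjusted p = 0.000875) and fell by 0.69 ± 0.14 (adjusted p = 0.0038). Thy1 was at 15.42 and 15.40 in the naive and 14.49 and 14.36 in the TFH libraries and fell by 0.99 ± 0.14 (adjusted p = 0.000614). The call that ended without 1 library was that of Malt1 (naive replicate 2 or TFH replicate 2, 0.46 at the weakest, adjusted p 0.00268 to 0.0649 over all alternatives).

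Of 24 PI3K and mTOR genes 8 fell and 2 rose. Irs2, an adaptor of insulin and IL-4 receptors, was at 8.92 and 8.89 in the naive and 11.77 and 12.37 in the TFH libraries and rose by 3.17 ± 0.19 (adjusted p = 4.08e-06). Rptor, the defining subunit of mTORC1, was at 11.60 and 11.87 in the naive and 11.17 and 11.27 in the TFH libraries and fell by 0.52 ± 0.11 (adjusted p = 0.00537). Irs2 thus stood apart from its pathway. Of 29 genes of G protein and cyclic AMP signalling 10 rose and 6 fell. Rgs2, which shortens G protein signals, was at 10.78 and 10.85 in the naive and 13.55 and 13.63 in the TFH libraries and rose by 2.78 ± 0.10 (adjusted p = 8.97e-09). Rgs1 was at 11.62 and 11.38 in the naive and 13.32 and 13.51 in the TFH libraries and rose by 1.92 ± 0.19 (adjusted p = 0.000287). Rgs16 was at 10.11 and 9.37 in the naive and 12.97 and 12.79 in the TFH libraries and rose by 3.14 ± 0.39 (adjusted p = 0.00466). Gpr65, a proton sensor, was at 11.32 and 11.32 in the naive and 10.04 and 10.15 in the TFH libraries and fell by 1.22 ± 0.11 (adjusted p = 1.51e-05). Gpr18 and Gpr171 fell by 0.94 ± 0.10 (adjusted p = 6.99e-05) and fell by 1.03 ± 0.12 (adjusted p = 0.000138). Rgs2, Rgs1 and Rgs16 thus rose while Gpr65, Gpr18 and Gpr171 fell. Other receptors, such as Lpar3, Gpr183 and Ccr8, rose, as given above. Of 28 calcium and ion channel genes 7 fell and 3 rose, among them the calcineurin subunit gene Ppp3ca, which fell by 0.80 ± 0.10 (adjusted p = 0.000245). Dependent on 1 library was the call of Rptor (naive replicate 2, -0.38 at the weakest, adjusted p 0.00385 to 0.0547 over all alternatives). Leaving out replicate 2 of both TFH groups ended the call of Rgs16 (3.23, adjusted p = 0.0788, from 0.000246 over the alternatives).

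Of 11 amino acid transporters 6 rose and 0 fell. Slc1a4, a carrier of alanine, serine and cysteine, was at 6.13 and 6.38 in the naive and 9.57 and 9.38 in the TFH libraries and rose by 3.22 ± 0.21 (adjusted p = 1.35e-06). Slc38a2, a carrier of neutral amino acids, was at 12.80 and 12.96 in the naive and 13.99 and 14.15 in the TFH libraries and rose by 1.19 ± 0.11 (adjusted p = 3.21e-05). Slc3a2 and Slc7a5, the chains of the large neutral amino acid transporter, rose by 1.04 ± 0.12 (adjusted p = 8.85e-05) and rose by 0.82 ± 0.12 (adjusted p = 0.000591). In serine and one-carbon metabolism 4 of 11 rose and 1 fell. Psat1, which makes serine, was at 10.74 and 10.66 in the naive and 12.09 and 12.05 in the TFH libraries and rose by 1.37 ± 0.13 (adjusted p = 2.46e-05). A carrier and an enzyme of serine thus rose in the same libraries. Of 27 glycolysis genes 8 rose and 2 fell. Pgam1 was at 12.21 and 11.89 in the naive and 13.06 and 12.92 in the TFH libraries and rose by 0.94 ± 0.13 (adjusted p = 0.000423). Gapdh was at 14.10 and 13.83 in the naive and 14.79 and 14.60 in the TFH libraries and rose by 0.73 ± 0.15 (adjusted p = 0.00437). Pdk1, which keeps pyruvate from mitochondria, was at 13.89 and 14.06 in the naive and 12.93 and 12.74 in the TFH libraries and fell by 1.14 ± 0.13 (adjusted p = 0.000118). Hif1a, which drives glycolysis under low oxygen, was at 12.62 and 12.10 in the naive and 13.62 and 13.46 in the TFH libraries and rose by 1.18 ± 0.18 (adjusted p = 0.00161).

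Sterol and lipid genes were lower more often than higher, with 7 of 28 called lower and 2 higher. Sc5d, of cholesterol synthesis, was at 10.99 and 10.999 in the naive and 10.18 and 10.28 in the TFH libraries and fell by 0.77 ± 0.11 (adjusted p = 0.000389). Insig1, which holds back sterol sensing, was at 11.26 and 11.23 in the naive and 12.16 and 12.02 in the TFH libraries and rose by 0.84 ± 0.11 (adjusted p = 0.000271), while Insig2 fell by 0.68 ± 0.15 (adjusted p = 0.00553). Hmgcs1, an early enzyme of the pathway, fell by 0.43 ± 0.10 (adjusted p = 0.0106). The INSIG genes thus went apart. When 1 library was left out, the threshold was missed by Insig2 (TFH replicate 2, -0.55 at the weakest, adjusted p 0.00398 to 0.0686 over all alternatives) and Hmgcs1 (naive replicate 2 or TFH replicate 2, -0.34 at the weakest, adjusted p 0.00731 to 0.098 over all alternatives). Of 27 genes of the TCA cycle 3 fell and 1 rose, a called share of 14.8%, below the 26.3% of all genes. Idh1 was at 9.93 and 9.23 in the naive and 8.47 and 8.20 in the TFH libraries and fell by 1.25 ± 0.22 (adjusted p = 0.00205).

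Myc was at 11.15 and 11.47 in the naive and 12.19 and 12.23 in the TFH libraries and rose by 0.90 ± 0.14 (adjusted p = 0.000989), and its antagonists Mxd1 and Mxd3 rose by 1.17 ± 0.13 (adjusted p = 9.51e-05) and rose by 1.22 ± 0.24 (adjusted p = 0.00394). Of 34 ribosome biogenesis genes 10 rose and 0 fell, led by Gnl3, a nucleolar GTPase, at 11.27 and 11.52 in the naive and 12.33 and 12.58 in the TFH libraries, which rose by 1.06 ± 0.12 (adjusted p = 0.000135). Of 79 ribosomal protein genes 2 rose and 0 fell, with a median difference of 0.01. Of 78 oxidative phosphorylation genes 6 rose and 1 fell, with a median of 0.11, and of 7 calls 0 held when each library was left out. Of 37 proteasome genes limma called 0, with 7 at an unadjusted p below 0.05 and a median of 0.12. Shares for ribosomal proteins and the proteasome thus lay below the background of 12.6% called higher.

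Of 40 interferon-stimulated genes 11 rose and 2 fell, and of 22 genes induced by interferon gamma 7 rose and 2 fell. Mx2, an antiviral GTPase, was at 7.60 and 7.78 in the naive and 9.42 and 9.06 in the TFH libraries and rose by 1.55 ± 0.21 (adjusted p = 0.000361). Isg15, a ubiquitin-like modifier, was at 10.38 and 10.18 in the naive and 11.57 and 10.98 in the TFH libraries and rose by 0.99 ± 0.18 (adjusted p = 0.00315). Irf1, a factor induced by interferon gamma, was at 14.11 and 14.09 in the naive and 15.14 and 15.24 in the TFH libraries and rose by 1.09 ± 0.18 (adjusted p = 0.00249). Gbp4 and Gbp6, guanylate-binding proteins, rose by 0.79 ± 0.16 (adjusted p = 0.00456) and rose by 0.83 ± 0.13 (adjusted p = 0.000874). Ly6e was at 16.11 and 15.82 in the naive and 15.04 and 14.88 in the TFH libraries and fell by 1.004 ± 0.12 (adjusted p = 0.000129), and Irgm2, an immunity-related GTPase, fell by 0.83 ± 0.14 (adjusted p = 0.00135). The summed level of the 40 genes was 17.91 and 17.76 in the naive and 17.83 and 17.68 in the TFH libraries, and the groups overlapped.

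Among 19 chromatin regulators 6 rose and 1 fell. Ezh2, the methyltransferase of the Polycomb complex PRC2, was at 10.85 and 10.65 in the naive and 11.97 and 12.04 in the TFH libraries and rose by 1.25 ± 0.12 (adjusted p = 2.73e-05). Ezh1, its counterpart in resting cells, was at 12.46 and 12.45 in the naive and 11.96 and 12.03 in the TFH libraries and fell by 0.46 ± 0.09 (adjusted p = 0.00451). Suz12, the partner of both, rose by 0.71 ± 0.12 (adjusted p = 0.00125). The 2 methyltransferase genes thus went in opposite directions. Hist1h1c, a linker histone gene, was at 7.998 and 8.11 in the naive and 9.67 and 9.69 in the TFH libraries and rose by 1.63 ± 0.15 (adjusted p = 2.33e-05). Of 15 long noncoding RNA genes 7 rose and 0 fell, including Gas5, a host of small nucleolar RNAs, at 12.85 and 13.22 in the naive and 13.93 and 13.89 in the TFH libraries, which rose by 0.88 ± 0.13 (adjusted p = 0.000586). Map1lc3a, an autophagosome coat gene, was at 7.94 and 6.995 in the naive and 9.82 and 10.10 in the TFH libraries and rose by 2.49 ± 0.32 (adjusted p = 0.000878). Ctsd, a lysosomal protease abundant in macrophages, was at 14.95 and 14.47 in the naive and 13.74 and 13.58 in the TFH libraries and fell by 1.05 ± 0.17 (adjusted p = 0.00171), beside the macrophage marker sums given first, whose part in it was not tested. Notch1 was at 13.65 and 13.40 in the naive and 14.15 and 14.43 in the TFH libraries and rose by 0.77 ± 0.13 (adjusted p = 0.00167).

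**Figure D5:**
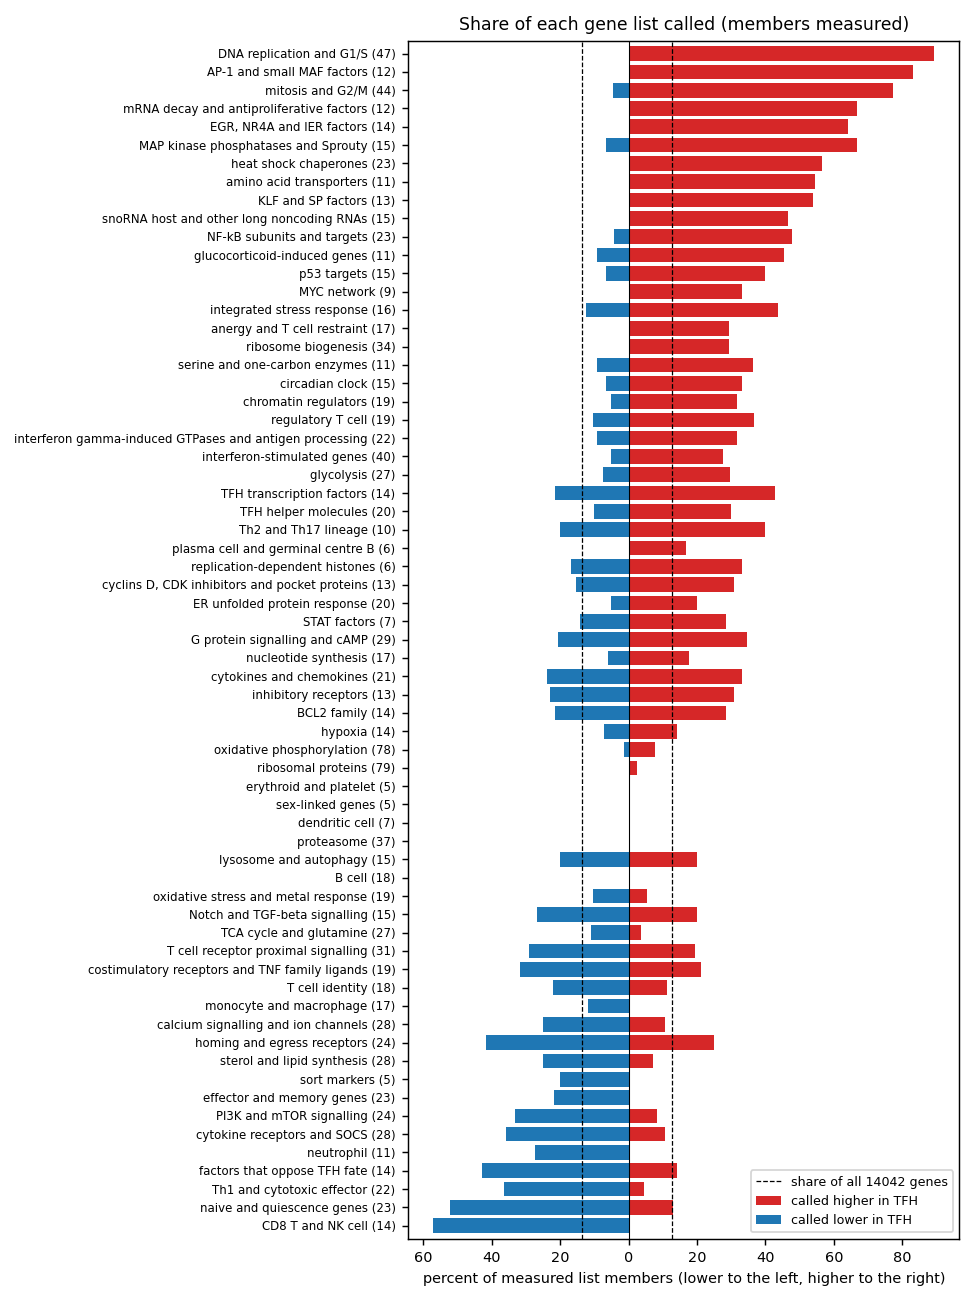
Percent of measured members of each gene list called higher (red, to the right) or lower (blue, to the left) in TFH, with the number measured in brackets and dashed lines at the shares of all genes, 12.6% and 13.7%. DNA replication, AP-1 and mitosis lists reach furthest to the right and CD8 T and NK cell markers furthest to the left.

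The same contrast in cells lacking C5aR1 used 4 other libraries. Their naive replicate 1 stood apart in 5 sex-linked genes, with a median of -5.65 relative to the mean of the 4 wild type libraries. The medians of all other libraries ran from -0.09 to 0.15. The cells of this library may therefore differ in sex, and the part of this in the results was not tested. Of the 3694 called genes, 3643 had a difference of the same sign there, against 79.4% of all genes. The difference between the contrasts was itself called for 2 of 14042 genes (0.0142%) by limma, with 614 at an unadjusted p below 0.05, 4.37% of all. Slc1a5, a glutamine transporter at 7:16781340-16798274 on GRCm38, was at 13.90 and 14.04 in the naive and 13.86 and 13.81 in the TFH libraries in wild type, a difference of -0.13 ± 0.10 (adjusted p = 0.384) against 1.62 without the receptor. Fbxo17, an F-box gene at 7:28716804-28738144, was at 8.72 and 8.93 in the naive and 9.58 and 9.61 in the TFH libraries, a rise of 0.77 ± 0.13 (adjusted p = 0.00161) against -0.94. Genes that rose most had like differences in both contrasts, such as Tnfaip3 at 5.37 and Maff at 5.81 without C5aR1. Of the 20 named rises 20 were called in the same direction there, and of the 20 named falls 7 were, with the same sign for 20 of the 20 falls.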

How the data were processed

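Per the labels' protocols, mRNA libraries were read from 1 end over 51 bases. Reads were aligned with BWA to mm10, per the submitters' processing notes. How reads were counted and normalized, and with which annotation, is not given in the sources used. The deposited values are on a log2 scale, and the authors' tables hold 1 value per gene and library. The distributions of the libraries are alike and many genes share a value, so small differences are measured coarsely, depth is unknown, and no count test or counting interval was possible.

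All 14042 genes of the 8 libraries were fitted in limma 3.58.1 (R 4.3.3) with a mean per group, a mean-variance trend and robust moderation, and p-values were adjusted by Benjamini-Hochberg over all genes. The 4 libraries lacking C5aR1 share in the estimate of spread, among them the naive library that stood apart in sex-linked genes. With 2 against 2 libraries the smallest two-sided p of an exact permutation test is 0.33, so none was used. In simulated data 200 genes were changed. The fit recovered 18% of those changed by log2 0.5, 62% at 1, 94% at 2 and 98% at 4, and called 7 unchanged genes. In the data 3694 genes were called. Recovery depends on the share of genes that change, so these rates may not hold for this comparison. Symbols of 13760 genes matched GENCODE vM21 on GRCm38, and 10875 had a RefSeq promoter.

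The comparison and the gene lists were chosen with earlier results of these data known. Genes were named by rule: the 20 largest rises and falls that were called, did not overlap between groups and reached a mean of log2 8 in the higher group, without predicted genes, clones and receptor segments; in each list the called members with up to 6 largest rises and falls; and all members of the lists of sort markers, TFH factors, opposing factors and helper molecules. Of these 398 genes 360 were called, and the text gives a part of them. Csf1r, C1qa, Cybb, Cd8a, Gzma, Cd79a and Foxp3 are given as defining markers whatever their values. The complement receptor genes, mitochondrially encoded genes and a few other genes are not reported here. The 13 alternatives cover pseudocount, filter, scaling, moderation, samples, weights, left-out libraries and a B cell covariate.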

Additional observations from a re-analysis of the deposited data

Results flagged for a closer look

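The TFH minus naive difference itself differed between wild type and C5aR1-deficient cells for 2 genes in limma, by a test of that difference. For Slc1a5 the wild type difference was lower by 1.75 than the one without the receptor, a value of -1.75 on the log2 scale (adjusted p = 0.000954). For Fbxo17 the wild type difference exceeded the other by 1.71 (adjusted p = 0.00959). Each rests on 2 libraries per group, and the test does not tell in which groups the difference arises. Both genes lie on chromosome 7. Naive replicate 1 lacking C5aR1 stood apart in sex-linked genes, and the part of this was not tested.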

How the results depend on the processing

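No called named gene changed sign under the 13 alternatives, but 7 uncalled ones with differences near 0 did. Leaving out 1 library gave ranges of -0.224 to 0.106 for Bach2, -0.151 to 0.0958 for Ccr7, -0.476 to 0.0473 for Cxcl13, -0.110 to 0.276 for Id2, -0.286 to 0.259 for Il2rb, -0.0722 to 0.465 for P2rx7 and -0.0908 to 0.0607 for Slamf1. Il2rb was at 0.0236 without replicate 2 of both TFH groups and at 0.0002 with libraries centred on ribosomal protein genes. Requiring a difference of at least 1 on the log2 scale left 563 genes higher and 499 lower. Leaving out 1 library gave 969 to 1175 genes higher and 1022 to 1326 lower, and leaving out replicate 2 of both TFH groups gave 1012 and 1092. The number of genes whose difference was called between genotypes was 1 to 4 when 1 library was left out, 1 with libraries centred on ribosomal protein genes and 0 without the trend. Among named genes, 121 calls were lost without TFH replicate 1, 118 without TFH replicate 2, 98 without naive replicate 2 and 87 without naive replicate 1. The fits without 1 library hold fewer samples, and a lone library is assumed to vary like the other groups. No paired analysis was possible because the labels give no replicate numbers and those used here follow the order of deposition. The unknown depth leaves the precision of low values unknown, and 2 libraries per group limit what can be called.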
